A study of Mus musculus with 79 samples.

Results

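A group of 9 genes of neuronal signalling is described here by their ribosome-bound mRNA in dopaminoceptive neurons of the mouse forebrain. They were selected on earlier knowledge of striatal signalling and on the measured difference between striatum and cortex in these same libraries, and they are 9 of the 25899 genes in the deposited table. The 9 are Gpr6, Ppp1r1b, Ppp1r1a, Arpp21, Ptpn5, Rasd2, Rasgrp2, Sh3rf2 and Lrrc10b. Because the choice used the prefrontal cortex and striatum values, those values are given as a description and carry no test. For 7 of the 9 genes the mean was higher than in cortex in each striatal group, and the libraries of each group lay above all cortex libraries except in D2 ventral striatum for Lrrc10b. Gpr6 also had a higher mean in each striatal group, but in D1 dorsal striatum it was at 0.894 CPM and its libraries overlapped those of cortex. Ppp1r1a had a mean of 32.2 CPM in cortex and between 26.0 and 39.8 CPM in the striatal groups, with overlapping libraries, so the name striatum-enriched did not hold for it.

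The study compared regions and receptor types of dopaminoceptive neurons. Mice carried a bacterial artificial chromosome transgene in which enhanced green fluorescent protein is fused to the ribosomal protein L10a, and ribosomes were pulled down with an antibody to the fluorescent protein (the bacTRAP method). All 5 groups shared the C57BL/6J background and the heterozygous transgene, and received no treatment that the labels name. Each library pooled tissue from 3 mice. Both sexes were present wherever the sex label was complete, and in 2 cortex libraries it was not. Ages are not given in the sources used here. The titles of the libraries coded EM number the regions in turn. It is not given there if pools of 1 region held the mice of another, so all pools were treated as separate and each p-value measures the spread between pools. The promoter of the D1a receptor gave the D1 groups and that of the D2 receptor the D2 groups, and a pull-down holds every cell type in the piece that uses the promoter. There were 15 libraries of dorsal and 15 of ventral striatum from the D1 line, 16 of dorsal and 14 of ventral striatum from the D2 line, and 19 of prefrontal cortex from the D1 line, 79 libraries in all. The ventral striatum was punched at the nucleus accumbens. Values are CPM, the reads of a gene scaled to the size of its library by the authors.

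As background, dopamine acts on striatal projection neurons through D1 receptors, which raise cyclic AMP, and D2 receptors, which lower it. Cyclic AMP activates protein kinase A, whose substrates in these neurons include inhibitors of protein phosphatase 1 and a tyrosine phosphatase, so that one signal changes both the adding and the removal of phosphate. Calcium and cyclic AMP also reach small GTPases of the Ras and Rap families, which lead to the MAP kinases. Within this scheme Gpr6 is an orphan receptor that raises cyclic AMP without an added ligand. Ppp1r1b encodes DARPP-32 and Ppp1r1a inhibitor-1, 2 related inhibitors of protein phosphatase 1. Arpp21 encodes a cyclic AMP-regulated phosphoprotein and Ptpn5 the striatal-enriched tyrosine phosphatase STEP. Rasd2 encodes the Ras-like GTPase Rhes, and Rasgrp2 an exchange factor for Rap controlled by calcium and diacylglycerol. Sh3rf2 encodes a protein with SH3 and RING finger domains, and Lrrc10b a protein with leucine-rich repeats.

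The genes lie at separate loci in the RefSeq annotation of GRCm38.p6. Gpr6 is at chr10:41069977-41072290 on the minus strand, Ppp1r1b at chr11:98348406-98357796 on the plus strand and Ppp1r1a at chr15:103530279-103538027 on the minus strand. Arpp21 is at chr9:112065091-112236288 and Ptpn5 at chr7:47077795-47134026, both on the minus strand. Rasd2 is at chr8:75213944-75224113 and Rasgrp2 at chr19:6398957-6415216, both on the plus strand, and Lrrc10b is at chr19:10455371-10457447 on the minus strand. A transcript on the opposite strand, 1700003D09Rik, overlaps Ppp1r1b and had its own row in the table, with a median of 21.9 CPM in D1 dorsal striatum and 0.833 CPM in D1 prefrontal cortex. Arpp21, Ptpn5 and Rasgrp2 also overlap genes on the opposite strand, and whether counting used strand is not given in the sources used here, so reads in these overlaps are uncertain.

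The bases upstream of 2 of the genes are shown, since Gpr6 gave the largest difference of the 9 between D1 and D2 neurons and Lrrc10b the largest rise from ventral to dorsal striatum in both neuron types. Each sequence is the 250 bases before the annotated transcript start, read 5′ to 3′ on the gene's strand, from RefSeq's GRCm38.p6 promoter table, in which 6 of the 9 genes were matched. The Gpr6 stretch is chr10:41072291-41072540 and the Lrrc10b stretch chr19:10457448-10457697. Capitals mark the cyclic AMP response element TGACGTCA, which reads the same on both strands, and the GC box GGGCGG on either strand (CCGCCC on the other).
Gpr6: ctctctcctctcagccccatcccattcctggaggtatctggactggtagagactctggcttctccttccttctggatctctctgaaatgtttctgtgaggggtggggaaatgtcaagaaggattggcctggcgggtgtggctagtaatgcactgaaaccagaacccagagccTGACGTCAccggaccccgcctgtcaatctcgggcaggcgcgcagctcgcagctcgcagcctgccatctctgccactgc
Lrrc10b: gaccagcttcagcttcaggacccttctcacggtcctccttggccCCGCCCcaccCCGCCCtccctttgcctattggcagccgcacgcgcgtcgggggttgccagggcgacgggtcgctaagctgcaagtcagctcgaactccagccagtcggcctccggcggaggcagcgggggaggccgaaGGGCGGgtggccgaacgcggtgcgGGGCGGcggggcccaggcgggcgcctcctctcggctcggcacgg
The Gpr6 stretch held 1 full cyclic AMP response element and no GC box. The Lrrc10b stretch held 4 GC boxes and no such element. Of 32851 windows of the same length in that table, 508 (1.55%) held the full element and 10756 (32.7%) a GC box. None of the windows of Arpp21, Ptpn5, Rasd2 and Rasgrp2 held the full element. A match describes letters only and shows no binding.

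Reads in genes ran from 7.35 to 30.8 megareads per library (median 17.5), and they made up between 31.0% and 40.2% of the total the authors scaled to. The receptor genes followed the labels. Drd1a ran from 139 to 288 CPM in D1 striatal libraries against 6.86 to 40.6 CPM in D2 ones, and Drd2 from 337 to 1596 CPM in D2 libraries against 2.16 to 16.2 CPM in D1 striatal ones. In cortex Drd1a was lower, 9.52 to 44.8 CPM. The 5 markers of cortical glutamatergic neurons summed to a median of 639 CPM in cortex, 101 CPM in D1 dorsal striatum, 66.0 CPM in D1 ventral striatum, 8.17 CPM in D2 dorsal striatum and 11.3 CPM in D2 ventral striatum. In D2 ventral striatum 1 library, replicate 2, reached 84.5 CPM. Summed oligodendrocyte markers had medians of 73.5 CPM in D1 dorsal, 110 CPM in D2 dorsal, 46.7 CPM in D1 ventral and 80.5 CPM in D2 ventral striatum and 39.7 CPM in cortex, so they were higher in dorsal than in ventral striatum of both lines. Ttr, a gene of choroid plexus, had medians of 3.79 and 7.49 CPM in D1 and D2 dorsal and 0.129 and 0.218 CPM in D1 and D2 ventral striatum, and Kl, another marker on that list, went the other way, with medians of 0.978 and 1.52 CPM in dorsal and 3.26 and 3.43 CPM in ventral striatum. Folr1 and Aqp1, the rest of the list, had a median of 0 in each group. Summed GABA interneuron markers had medians of 29.4 CPM in D1 dorsal, 10.1 CPM in D2 dorsal, 17.4 CPM in D1 ventral and 20.0 CPM in D2 ventral striatum and 150 CPM in cortex. Summed astrocyte markers had a median of 25.1 CPM in cortex and medians from 4.04 to 6.16 CPM in the striatal groups. The 4 cholinergic interneuron markers in the table, summed, had group medians from 1.22 to 14.8 CPM, with both D2 groups highest. Slc17a8 of these went another way, with a median of 3.91 CPM in cortex, 1.59 CPM in D2 dorsal and 2.25 CPM in D2 ventral striatum. The part of these other cells in the results was not tested. In such pull-downs fewer cells of a type and less RNA per cell cannot be told apart.

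**Figure D1:**
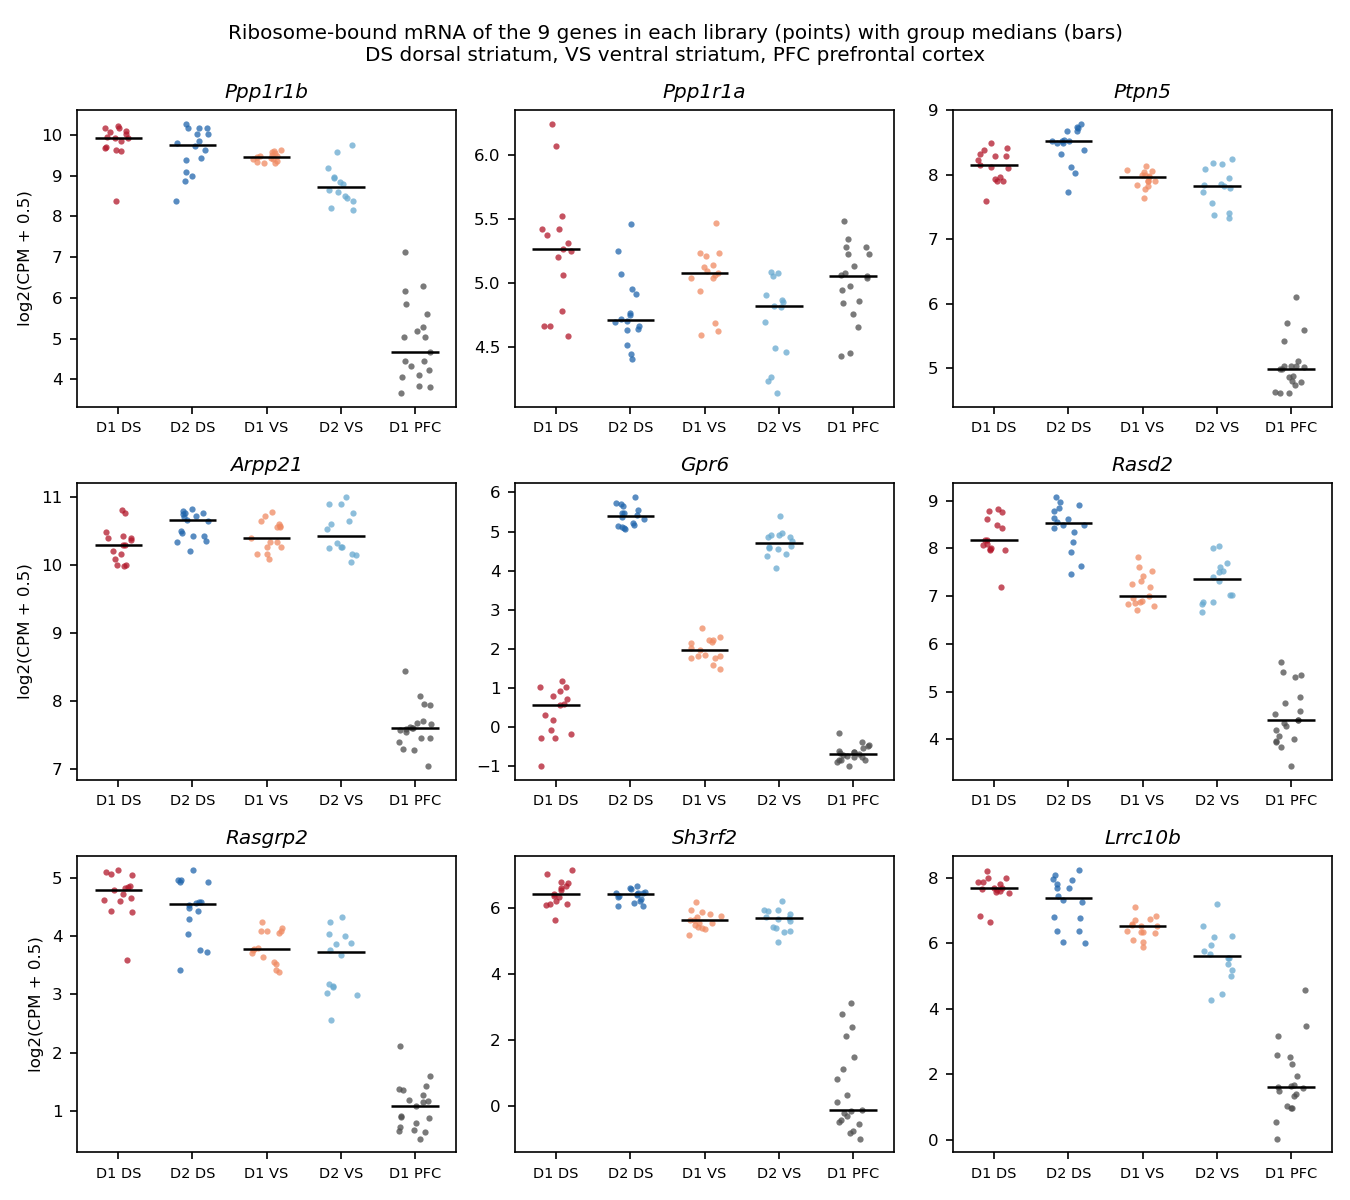
Ribosome-bound mRNA of each gene, as log2(CPM + 0.5), in every library (points) by group, with the group median as a bar. Gpr6 separates the D2 groups from the D1 groups, Ppp1r1a overlaps across all 5 groups, and the other 7 genes are lowest in D1 prefrontal cortex.

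Gpr6 followed the receptor more than any of the other 8 genes. In D2 dorsal striatum its libraries ran from 32.7 to 58.9 CPM (median 41.7), and in D2 ventral striatum from 16.3 to 41.7 CPM (median 25.5). In D1 ventral striatum they ran from 2.29 to 5.32 CPM (median 3.40), and in D1 dorsal striatum from 0 to 1.75 CPM (median 0.979). D1 prefrontal cortex was lowest at 0 to 0.393 CPM (median 0.119), which is 0 to 15 reads a library. The 2 D2 groups overlapped each other, D1 ventral striatum stood apart from every other group, and D1 dorsal striatum overlapped cortex. Each of the 2 lowest groups had 1 library with 0 reads.

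The difference between D1 and D2 was then tested within each region. These comparisons were not used to choose the genes, although the D1 libraries are those that were set against cortex. Each difference is taken between means of log2(CPM + 0.5), so that for a gene near 0 CPM it comes out smaller than the ratio of means. A gene is called different at a Benjamini-Hochberg adjusted p under 0.05 over all genes tested with limma. In dorsal striatum 4 of the 9 genes were called, where 25.9% of 11090 genes were. Higher in D1 was 1 of the 9 (12.8% of all genes) and lower were 3 (13%). Gpr6 was lower in D1 by 5.03 (log2 difference -5.03, SE 0.16, limma adjusted p = 3.67e-24), and all 16 D2 libraries lay above all 15 D1 libraries, a separation shown by 1.18% of genes tested. Genes were tested where at least 1 CPM was reached in as many libraries as the smaller group holds, and Gpr6 met this through the D2 libraries, since 7 of 15 D1 dorsal libraries reached 1 CPM. With no filter its limma adjusted p was 3.38e-21. With a pseudocount of 0.1 the difference was -5.69 and with 1 it was -4.55.

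The other 3 calls in dorsal striatum were small. Ppp1r1a was higher in D1, at 39.8 CPM ± 14.6 (SD, n = 15) against 27.6 CPM ± 6.07 (SD, n = 16), a log2 difference of 0.47 (SE 0.13, limma adjusted p = 0.00955). Ptpn5 was lower in D1, at 285 CPM ± 46.1 against 357 CPM ± 63.7 (-0.32, SE 0.10, limma adjusted p = 0.0164). Arpp21 was lower too, at 1285 CPM ± 237 against 1544 CPM ± 203 (-0.27, SE 0.09, limma adjusted p = 0.0235). The groups overlapped for these 3 genes: 3 of 15 D1 libraries lay above all D2 libraries for Ppp1r1a, and 11 of 16 D2 libraries above all D1 libraries for Ptpn5. Library names begin with letter codes of unstated meaning, and the D1 libraries were 11 EM, 3 BdP and 1 JAG while the D2 libraries were 8 EM and 8 OdP. Among EM libraries alone Ppp1r1a (0.52) and Gpr6 (-5.08) were called, while Ptpn5 (-0.34, limma adjusted p = 0.0967) and Arpp21 (-0.22, limma adjusted p = 0.137) were not. Ptpn5 was also lost when libraries were scaled to their reads in genes (-0.26, limma adjusted p = 0.0803), and Arpp21 with no filter on low values (limma adjusted p = 0.0672), with the name code as a covariate (limma adjusted p = 0.0659) and with the fraction of reads that fell in genes as another (-0.19, limma adjusted p = 0.0816). The code itself moved with both Arpp21 and Gpr6: within D2 dorsal striatum EM libraries were lower than OdP libraries for Arpp21 (-0.33, limma adjusted p = 0.00563) and higher for Gpr6 (0.42, limma adjusted p = 0.00183), where 30.2% of 10939 genes were called.

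The remaining 5 genes gave no call between D1 and D2 in dorsal striatum. Ppp1r1b had 944 CPM ± 218 in D1 and 840 CPM ± 281 in D2 (0.21, limma adjusted p = 0.385). Lrrc10b had 205 CPM ± 49.5 and 169 CPM ± 77.7 (0.39, limma adjusted p = 0.143). The differences of Rasd2, Rasgrp2 and Sh3rf2 were -0.22, 0.25 and 0.08. A p that misses the threshold does not show equal levels, and the SE of these 5 differences ran from 0.11 to 0.20.

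In ventral striatum 4 of the 9 genes were again called between D1 and D2, where 47.7% of 11410 genes were, so the share was close to the background. Of the 9, 3 were higher in D1 (24.1% of all genes) and 1 lower (23.6%). Gpr6 was lower in D1 (-2.73, SE 0.12, limma adjusted p = 5.68e-20), with all 14 D2 libraries above all 15 D1 libraries and 1.34% of genes tested separated in this way. Ppp1r1b was higher in D1, at 706 CPM ± 51.8 (SD, n = 15) against 467 CPM ± 171 (SD, n = 14), a log2 difference of 0.67 (SE 0.12, limma adjusted p = 4.52e-05). Lrrc10b was higher, at 90.2 CPM ± 19.9 against 56.5 CPM ± 33.02 (0.84, SE 0.20, limma adjusted p = 0.000899). Ppp1r1a was higher, at 32.7 CPM ± 5.36 against 26.0 CPM ± 5.64 (0.34, SE 0.11, limma adjusted p = 0.00942).

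The share of reads in genes moved with these differences. It ran from 32.8% to 37.5% in D1 ventral striatum and from 34.7% to 39.8% in D2 ventral striatum. With that share as a covariate Gpr6 alone of the 9 was called (-2.87), and the values were 0.28 for Ppp1r1b (limma adjusted p = 0.192), 0.35 for Lrrc10b (limma adjusted p = 0.401) and 0.16 for Ppp1r1a (limma adjusted p = 0.516). Among EM libraries alone all 4 genes were called. Ptpn5, which was not called, was higher in D1 when libraries were scaled to their reads in genes (0.24, limma adjusted p = 0.0345). D1 and D2 overlapped for Ppp1r1b and Lrrc10b, since the highest D2 library was above every D1 library for both genes: 862 against 798 CPM for Ppp1r1b and 147 against 136 CPM for Lrrc10b. The spread of Lrrc10b in D2 ventral striatum was wide, from 18.9 to 147 CPM (median 48.5).

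**Figure D2:**
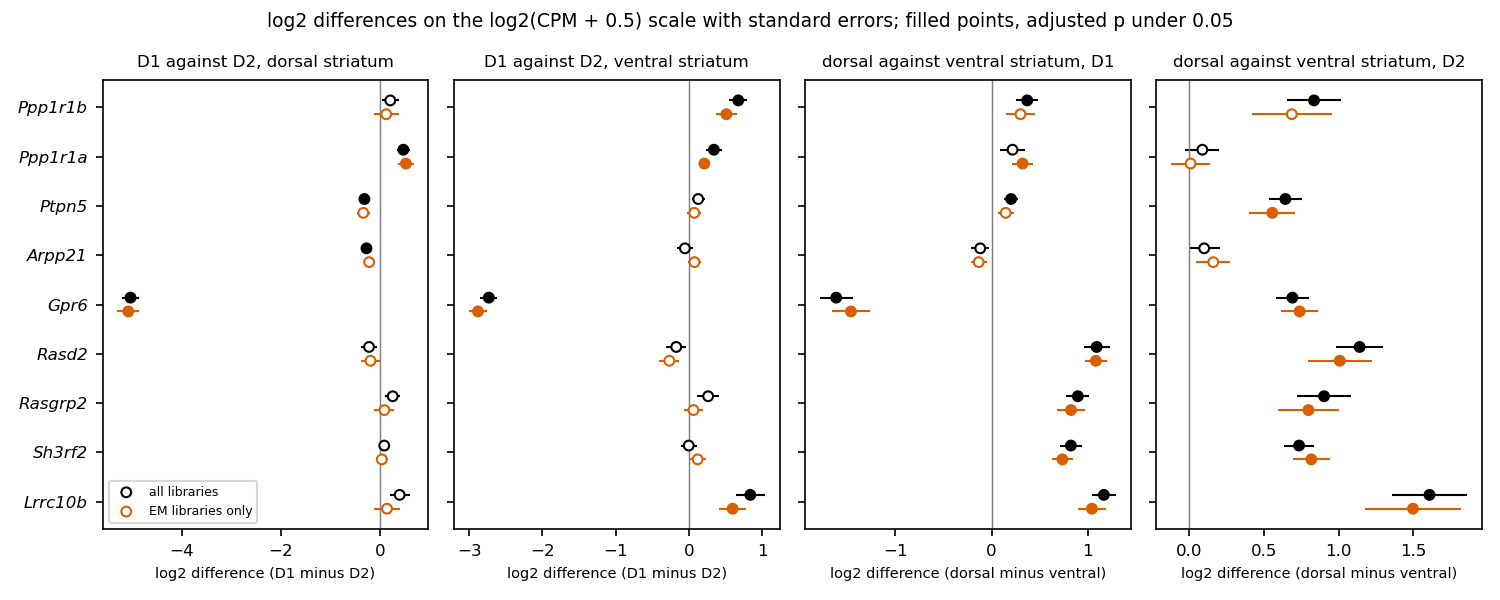
Differences of the 9 genes in the 4 tested striatal comparisons on the log2(CPM + 0.5) scale with standard errors, for all libraries (black) and for EM libraries alone (orange), where a filled point has an adjusted p under 0.05. Gpr6 lies at -5.03 and -2.73 in the D1 minus D2 panels, and Rasd2, Rasgrp2, Sh3rf2 and Lrrc10b lie above 0 in both dorsal minus ventral panels.

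Dorsal and ventral striatum parted most of the genes in D2 neurons. For D2 neurons, whose libraries are not part of the contrast between cortex and striatum in D1 neurons, 7 of the 9 were called and all 7 were higher in dorsal striatum, where 28.5% of 11187 genes were called and 7.93% were called higher. For D1 neurons 7 were called, 6 of them higher in dorsal striatum, where 34.6% of 11332 genes were called and 10.1% were called higher. The D1 libraries of both regions were used in choosing the genes. The D2 libraries are outside that contrast, but the genes were chosen with earlier results of these data known. Both counts are thus a description, and nothing is read from them against those shares. Ppp1r1b, Ptpn5, Rasd2, Rasgrp2, Sh3rf2 and Lrrc10b were called higher in dorsal striatum in both. The 2 comparisons share no library, but the choice of the genes used the D1 libraries, so this match is a description. None of the 9 genes had D2 groups that did not overlap, where 1.46% of genes had. The median of all genes tested was -0.12 in each of the 2 comparisons, and with median-ratio scaling it was -0.01 in D1 and 0.01 in D2. With that scaling 14.7% of genes in D1 and 12.5% in D2 were called higher, and 14.5% and 11.9% lower, against 24.5% and 20.6% lower without it. The same number of the 9 genes was called under it, and its values for the 9 genes were within 0.14 of those given.

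Rasd2 and Rasgrp2, the Ras and Rap genes, differed between dorsal and ventral striatum. The D1 tests of single genes here and below use libraries that entered the choice of the genes, and are read with that limit. Rasd2 in D1 neurons ran from 144 to 450 CPM (median 286) in dorsal and from 104 to 226 CPM (median 128) in ventral striatum. In D2 neurons it ran from 175 to 541 CPM (median 367) and from 101 to 265 CPM (median 164). Its log2 differences, dorsal minus ventral, were 1.09 (SE 0.13, limma adjusted p = 4.59e-08) in D1 and 1.14 (SE 0.16, limma adjusted p = 4.90e-07) in D2, and 14 of 15 D1 dorsal libraries lay above all ventral ones. Rasgrp2 ran from 11.5 to 35.0 CPM (median 27.3) in D1 dorsal and from 9.98 to 18.5 CPM (median 13.2) in D1 ventral striatum. In D2 it ran from 10.2 to 34.9 CPM (median 23.1) and from 5.37 to 19.7 CPM (median 12.7). Its differences were 0.90 in both neuron types (SE 0.12 in D1 and 0.18 in D2; limma adjusted p = 2.67e-07 and 0.000184). For both genes the groups overlapped only in part, with the low dorsal libraries reaching into the ventral range.

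Sh3rf2 and Lrrc10b, which were among the genes furthest below striatum in cortex, also differed within striatum. The D1 libraries compared here are those that set their place against cortex. Sh3rf2 ran from 49.2 to 142 CPM (median 85.1) in D1 dorsal and from 35.5 to 71.8 CPM (median 48.6) in D1 ventral striatum. In D2 it ran from 65.6 to 101 CPM (median 84.5) and from 31.0 to 73.2 CPM (median 51.1). The differences were 0.82 (SE 0.12) in D1 and 0.74 (SE 0.10) in D2, with limma adjusted p = 7.66e-07 and 4.16e-07. Lrrc10b gave the largest rise of the 9 genes from ventral to dorsal striatum, with 1.17 (SE 0.13, limma adjusted p = 2.95e-09) in D1 and 1.61 (SE 0.25, limma adjusted p = 5.47e-06) in D2. Its libraries ran from 99.5 to 292 CPM (median 204) in D1 dorsal, 59.3 to 136 CPM (median 91.1) in D1 ventral, and 64.3 to 304 CPM (median 167) in D2 dorsal striatum. In D1, 13 of 15 dorsal libraries lay above every ventral one, and in D2, 10 of 16 did.

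Ppp1r1b and Ptpn5 were also called in both neuron types. Ppp1r1b ran from 334 to 1191 CPM (median 973) in D1 dorsal and from 639 to 798 CPM (median 700) in D1 ventral striatum, with a difference of 0.37 (SE 0.12, limma adjusted p = 0.0122). The 334 CPM came from replicate 13 alone, the lowest D1 dorsal library for 6 of the 9 genes, and the next lowest library was at 775 CPM. Replicate 13 also had the highest share of reads in genes of its group (40.0%) and the highest Ppp1r1a (75.2 CPM), and the part of this share in the low value was not tested. Without it the difference was 0.47 (limma adjusted p = 1.49e-06). In D2 it ran from 332 to 1241 CPM (median 871) and from 283 to 862 CPM (median 424), with a difference of 0.84 (SE 0.18, limma adjusted p = 0.000403). Among EM libraries alone neither Ppp1r1b call held (0.30, limma adjusted p = 0.121 in D1; 0.69, limma adjusted p = 0.0789 in D2). Ptpn5, whose product removes phosphate from tyrosines of MAP kinases and glutamate receptors, ran from 193 to 358 CPM in D1 dorsal and from 198 to 280 CPM in D1 ventral striatum (0.20, SE 0.08, limma adjusted p = 0.0368), and without replicate 13 the difference was 0.24 (limma adjusted p = 0.00478). In D2 it ran from 212 to 443 CPM and from 161 to 301 CPM (0.64, SE 0.11, limma adjusted p = 1.86e-05). The Ptpn5 call in D1 did not hold when libraries were scaled to their reads in genes (0.19, limma adjusted p = 0.0524) or among EM libraries (0.15, limma adjusted p = 0.188), and among EM libraries the call in D2 did (0.56, limma adjusted p = 0.0141). In 1 fit of all 4 striatal groups neither D1 call held (limma adjusted p = 0.0628 for Ppp1r1b and 0.0960 for Ptpn5).

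Ppp1r1a and Arpp21 did not pass the test between dorsal and ventral striatum in either neuron type. Ppp1r1a differed by 0.22 in D1 (limma adjusted p = 0.202) and 0.09 in D2 (limma adjusted p = 0.606). In D1 it was called among EM libraries (0.32, limma adjusted p = 0.0318), with the letter code as a covariate and with edgeR. Arpp21 differed by -0.12 in D1 (limma adjusted p = 0.338) and 0.10 in D2 (limma adjusted p = 0.511). Relative to the median of all genes these were 0.00 and 0.22. The 4 striatal groups of Arpp21 overlapped widely, from 1013 to 2047 CPM.

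Gpr6 was the exception to the dorsal direction. In D1 neurons it was lower in dorsal than in ventral striatum (-1.61, SE 0.17, limma adjusted p = 2.22e-09). It met the filter through the 15 ventral libraries, and with no filter the limma adjusted p was 2.14e-08. All 15 ventral libraries lay above all 15 dorsal ones, which 2.65% of genes tested did in either direction. In D2 neurons it was higher in dorsal striatum (0.69, SE 0.11, limma adjusted p = 5.85e-06), with 8 of 16 dorsal libraries above all ventral ones. The interaction over the 4 striatal groups, which tests whether the D1 minus D2 difference differs between regions, was -2.30 for Gpr6 (SE 0.20, limma adjusted p = 9.15e-13). It was the only one of the 9 genes called, where 2.64% of 11873 genes were. Ptpn5 was just short of the threshold (-0.44, SE 0.13, limma adjusted p = 0.0520). It was called in 5 of the alternative fits, among them edgeR's quasi-likelihood test on recovered reads (edgeR adjusted p = 0.0439) and limma without D2 dorsal striatum replicate 6 (limma adjusted p = 0.0123).

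**Figure D3:**
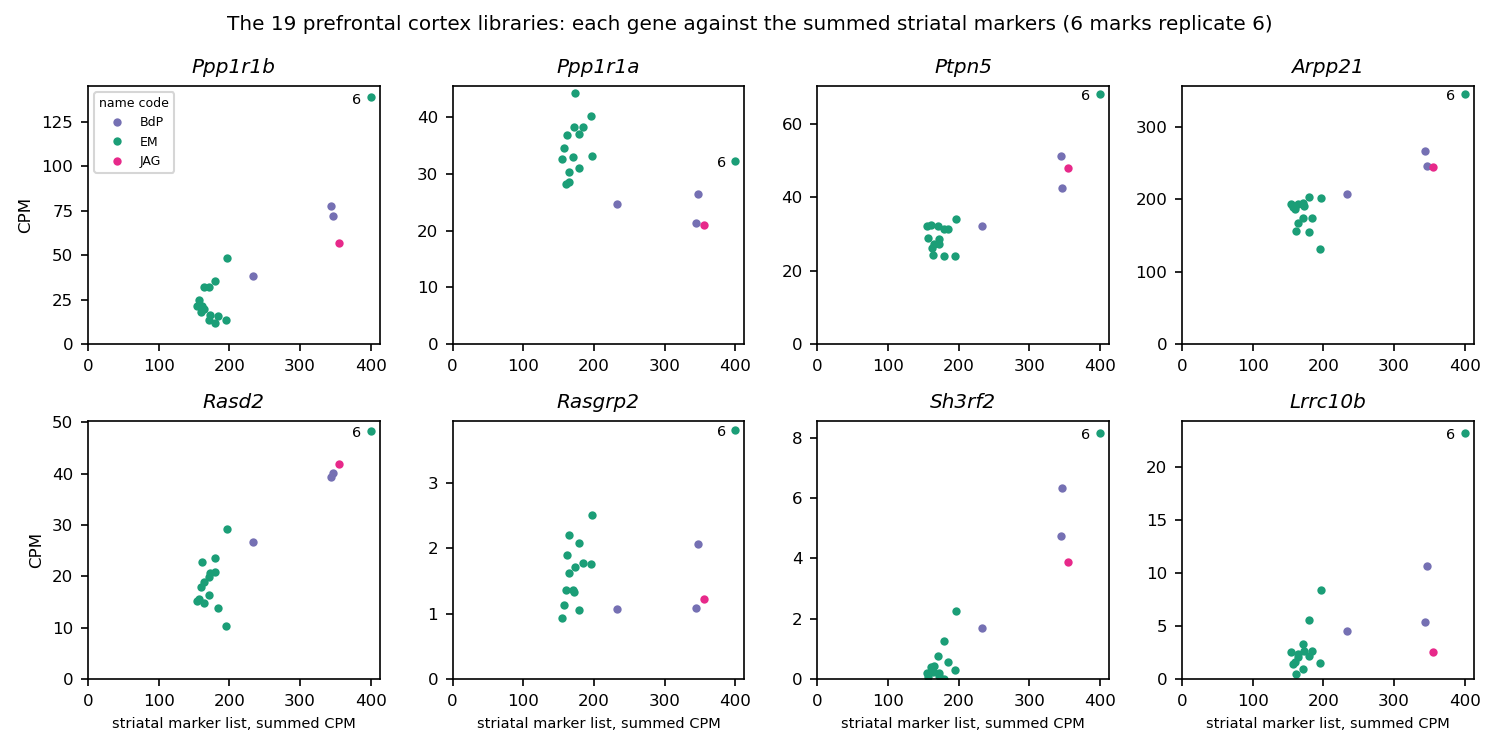
The 19 prefrontal cortex libraries: CPM of 8 of the genes against the summed CPM of 8 striatal projection neuron markers, coloured by the letter code of the library name. Replicate 6 is at the upper right for 7 genes. Replicates 19, 1 and 2 come next on the marker axis but are not all among the 4 highest for Rasgrp2 and Lrrc10b, and Ppp1r1a shows no such order.

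Against cortex, which was the contrast used to choose the genes, the values are a description. In D1 prefrontal cortex Ppp1r1b ran from 12.1 to 139 CPM (median 24.8), Ptpn5 from 24.0 to 68.2 CPM (median 31.4) and Arpp21 from 131 to 346 CPM (median 193). Rasd2 ran from 10.4 to 48.4 CPM (median 20.7) and Rasgrp2 from 0.927 to 3.81 CPM (median 1.62). Sh3rf2 ran from 0 to 8.16 CPM (median 0.426) and Lrrc10b from 0.521 to 23.2 CPM (median 2.59). Every library of each of these 7 genes in D1 dorsal and in D1 ventral striatum lay above every cortex library. Of the 8 genes that passed the filter on low values in the comparison with dorsal striatum these 7 were so separated, where 4.11% of 11654 genes were lower in cortex in this way, and in the comparison with ventral striatum 6.06% of 11749 genes were. The choice of the genes used this contrast, so nothing is read from these shares. Gpr6 passed the filter only in the comparison with ventral striatum, through its ventral libraries, which all lay above cortex.

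The ratio of means, D1 dorsal striatum over cortex, was 53.6 for Sh3rf2, 46.5 for Lrrc10b, 25.3 for Ppp1r1b, 15.8 for Rasgrp2, 12.99 for Rasd2, 8.38 for Ptpn5 and 6.39 for Arpp21. For Ppp1r1a it was 1.23. In the order of all 11654 genes from the most to the least lower in cortex than in D1 dorsal striatum, Sh3rf2 was number 2, Lrrc10b 3, Ppp1r1b 11, Rasd2 32, Rasgrp2 35, Ptpn5 61, Arpp21 95 and Ppp1r1a 2859. Cd4 stood just ahead of Sh3rf2 (-6.05 against -5.95). The choice thus took in genes far down the order, and no cut in the order separates members from other genes.

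One cortex library carried much of the cortex spread. Replicate 6, an EM library, was the highest cortex library for 7 of the 9 genes, and it was also the highest for Drd1a (44.8 CPM) and for the summed striatal markers (400 CPM, against a group median of 179 CPM). Replicates 19, 1 and 2 came next for the striatal markers with 355, 347 and 344 CPM, and were among the 4 highest cortex libraries for 6, 6 and 5 of the genes. Without replicate 6 the ratio of D1 dorsal striatum to cortex was 68.2 for Sh3rf2, 60.8 for Lrrc10b and 29.8 for Ppp1r1b. Ppp1r1a was at 32.3 CPM in replicate 6, close to its cortex mean. The part of striatal tissue in these libraries was not tested.

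The order of the groups by median level differed between genes. For Rasgrp2 and Lrrc10b it ran from D1 dorsal through D2 dorsal, D1 ventral and D2 ventral striatum to cortex, and Ppp1r1b had the same order. For Rasd2 it ran from D2 dorsal through D1 dorsal, D2 ventral and D1 ventral striatum to cortex. Ptpn5 was highest in D2 dorsal and Sh3rf2 in D1 dorsal striatum. In each of these orders neighbouring striatal groups overlapped, and the step down to cortex was complete except for Lrrc10b, where 12 of 14 D2 ventral libraries lay above all cortex libraries. For Ppp1r1a the order was D1 dorsal, D1 ventral, cortex, D2 ventral and D2 dorsal, with every neighbour overlapping.

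For each gene the 3 genes nearest in profile were found over the 5 groups, by the root mean square difference of group means of log2(CPM + 0.5), each centred on its own mean, among 9007 genes. This is a likeness of 5 means and no test. Ppp1r1b was nearest to Rgs9 (0.28), Nexn (0.33) and Rxrg (0.35), and Gpr6 to Penk (0.34), the enkephalin precursor gene of D2 neurons, Nt5e (0.59) and Slitrk6 (0.72). Rasd2 was nearest to Ptpn7 (0.10), and Rasgrp2 to Adcy5 (0.14), the main striatal adenylyl cyclase. Adcy5 was also among the 3 nearest to Rasd2 (0.24) and Ptpn5 (0.15). Arpp21 was nearest to Pard3 (0.07), Sh3rf2 to Cd4 (0.20), Lrrc10b to Nexn (0.35), Ptpn5 to Cbr3 (0.10) and Ppp1r1a to Tyro3 (0.03). Only for Lrrc10b was another of the 9 genes among the 3 nearest, Ppp1r1b at 0.39.

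The number of males in the pool was read from the labels, with 2 cortex libraries left out because that label was incomplete. Setting 2 males against 1, with group as a term, limma called 0 of the 9 genes, where 0.0961% of 11441 genes (11 genes) were called, and edgeR also called 0. Every D1 library with a code other than EM had 2 males, so there this number and the code are tied in part. The fit held no term for the code. At an unadjusted p under 0.05 limma gave 5 of 9, beside 13.9% of all 11441 genes. Rasd2 was higher by 0.37 with 2 males (limma adjusted p = 0.0806) and its mean was higher in 5 of 5 groups. Ppp1r1b was higher by 0.47 (limma adjusted p = 0.0806), and its mean was higher in 4 of 5 groups. In cortex Ppp1r1b was at 56.7 CPM ± 36.6 (SD, 9 libraries with 2 males) against 19.7 CPM ± 8.22 (SD, 8 libraries with 1 male). Replicates 6, 19, 1 and 2, the 4 cortex libraries highest for the striatal markers, all had 2 males and gave the 4 highest Ppp1r1b values (138.6, 56.7, 71.9 and 77.6 CPM), and their part in the difference was not tested.

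Other genes of the same pathways, on lists chosen with earlier results of these data known, showed which neighbours of the 9 moved. On the list of 24 genes that lead from the G protein through cyclic AMP to DARPP-32, 1 was higher and 5 lower in D1 than in D2 dorsal striatum, 25% in all beside 25.9% of all genes tested, with a list median of -0.07 beside 0.02 over all genes. In ventral striatum 6 were higher and 9 lower, 62.5% beside 47.7%. Prkar1b, a regulatory subunit of protein kinase A, was higher in D1 in both regions, at 138 CPM ± 23.2 against 68.3 CPM ± 10.1 in dorsal striatum (1.00, limma adjusted p = 1.26e-11) and by 0.87 in ventral striatum (limma adjusted p = 1.18e-09). Pde4b, a phosphodiesterase of cyclic AMP, was lower in D1 by 0.73 in both (log2 differences -0.73 and -0.73). Within D2 dorsal striatum Pde4b was also lower in EM than in OdP libraries (-0.56, limma adjusted p = 0.00621), and the D1 dorsal libraries held no OdP. Gnal, the stimulatory G protein subunit of striatum, was lower in D1 dorsal striatum (-0.72, limma adjusted p = 9.84e-05).

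Between dorsal and ventral striatum 5 genes of this list were higher and 5 lower in D1, where 10.1% of all genes were higher and 24.5% lower. In D2, 4 were higher and 5 lower, beside 7.93% and 20.6%. Pde10a, a striatal phosphodiesterase, was higher in dorsal striatum by 0.77 in D1 and 0.78 in D2. Prkar2a, another regulatory subunit, was lower by 1.06 in D1 and 0.80 in D2 (log2 differences -1.06 and -0.80). Adcy5 was higher by 0.82 in D2 (241 CPM ± 31.5 against 138 CPM ± 27.4, limma adjusted p = 1.35e-08). Against cortex, 14 of the 24 were lower in cortex than in D1 dorsal striatum (22.5% of all genes) and 5 higher (32.3%). In ventral striatum's comparison 13 were lower (35.1%) and 3 higher (27.7%). Against dorsal striatum the largest were Pde10a at -4.52, the G protein subunit gene Gng7 at -4.40 and Pde1b at -3.52.

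On the list of 24 Ras, Rap and MAP kinase genes, 2 were higher and 4 lower in D1 than D2 dorsal striatum (25% beside 25.9% of all genes), and 8 higher and 10 lower in ventral striatum (75% beside 47.7%). Rasgrf2, an exchange factor for Ras, was higher in D1, at 23.7 CPM ± 6.31 against 3.88 CPM ± 1.61 in dorsal (2.51, limma adjusted p = 3.27e-15) and 48.3 CPM ± 8.54 against 15.4 CPM ± 4.54 in ventral striatum (1.65, limma adjusted p = 7.28e-13). Unlike Rasgrp2, it was lower in dorsal than ventral striatum (log2 differences -1.04 in D1 and -1.89 in D2). Dusp6, a MAP kinase phosphatase, was lower in D1 in both regions (-0.59 and -1.03). Mapk3, which encodes ERK1, was lower in dorsal than ventral striatum (-0.78 in D1 and -0.69 in D2).

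The last list held 16 genes that share a name stem, family or function with the 9. Of these, 13 passed the filter in each comparison of D1 with D2. One was higher and 4 lower in D1 dorsal striatum (38.5% of those tested beside 25.9% of all genes), and 3 higher and 7 lower in D1 ventral striatum (76.9% beside 47.7%). Arpp19, which encodes a small phosphoprotein regulated by phosphorylation, was lower in D1 by 0.66 in dorsal and 1.18 in ventral striatum (log2 differences -0.66 and -1.18), a difference that also changed between regions (interaction 0.52, limma adjusted p = 0.00687). Ptpn7, a tyrosine phosphatase of MAP kinases like Ptpn5, was higher in dorsal striatum by 1.23 in D1 and 0.91 in D2. Ppp1r2, another inhibitor of protein phosphatase 1, went the other way (-0.85 in D1 and -0.95 in D2).

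**Figure D4:**
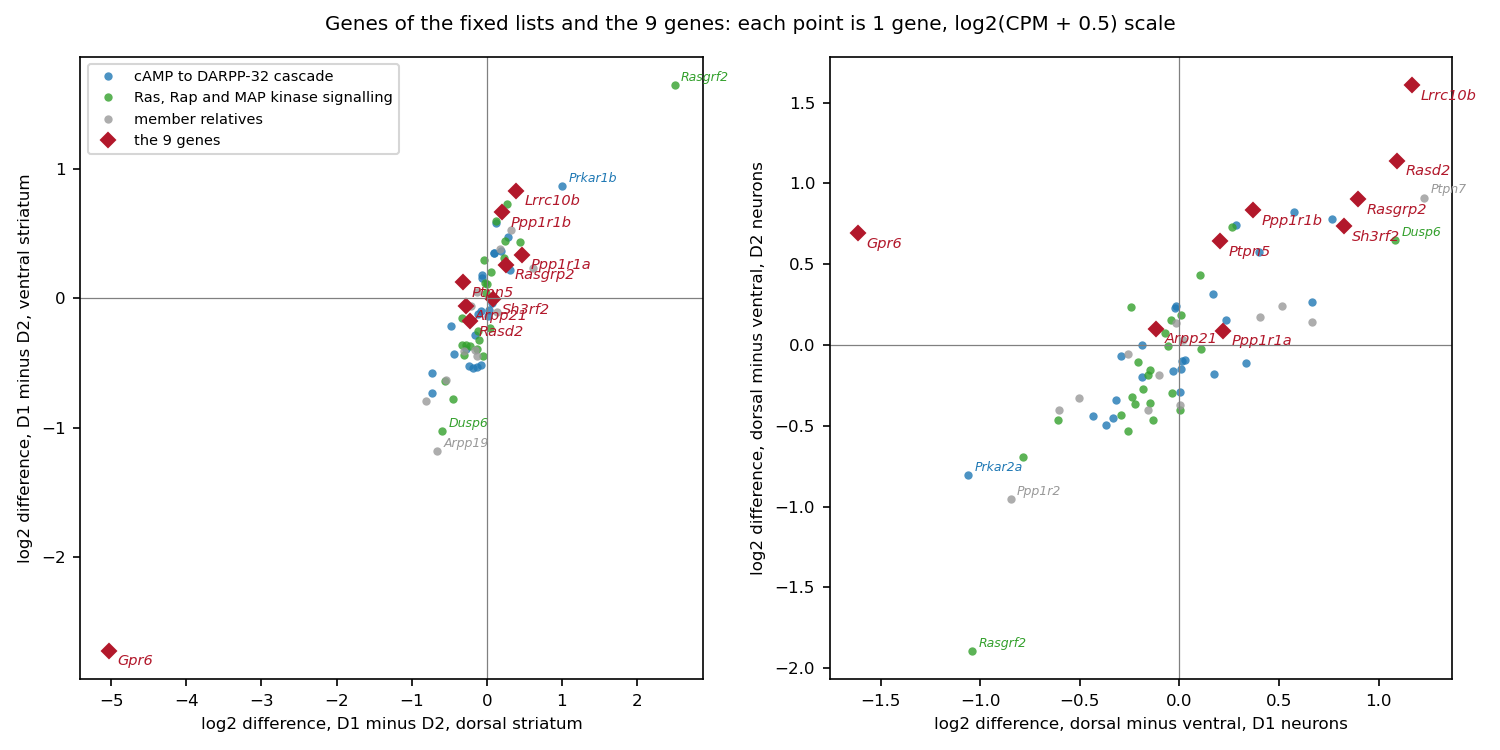
Each point is 1 gene of the 3 lists (circles) or of the 9 genes (diamonds): the log2 difference D1 minus D2 in dorsal against ventral striatum (left) and dorsal minus ventral in D1 against D2 neurons (right). Gpr6 is at the lower left of the left panel (-5.03 and -2.73) and furthest to the left of the 9 in the right panel (-1.61 and 0.69).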

How the data were processed

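Ribosome-bound polyA RNA of 79 pooled mouse libraries was analysed from 1 deposited table of CPM, which the authors scaled to a total larger than the reads in genes. Per the submitters' processing notes, reads were handled with Trim Galore 0.4.2, cutadapt 1.9.1, FastQC and HISAT2 on GRCm38. The counting program, annotation and use of strand are not given in the sources used here. Per the labels' protocols, cDNA was amplified before library preparation, without molecular identifiers, so intervals of counts would cover counting error only. Each CPM value was a whole multiple of what 1 read is worth (100% of values within a tolerance of 0.02), and these recovered reads gave the depths and an edgeR 4.0.16 alternative.

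Columns were matched to samples by title, with 0 left unmatched. Groups came from the receptor and region labels. Replicate numbers follow accession order and pair no samples. Genes with at least 1 CPM in as many libraries as the smaller group holds were tested on log2(CPM + 0.5) with limma 3.58.1 in R 4.3.3, with Benjamini-Hochberg adjustment over all genes tested. The code was tested on simulated data. Alternatives were other pseudocounts, filters and scalings, edgeR, a covariate (the name code, or the share of reads that fell in genes), EM or OdP libraries alone, single libraries left out, and a block of neighbouring EM title numbers (chosen after the data were seen).

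The 9 genes and the lists were chosen with earlier results of these data known. Named from each list were up to 3 called genes with the largest absolute difference per comparison, and for each of the 9 genes the 3 nearest in profile and its neighbours in the cortex order. Drd1 is listed as Drd1a and Hras as Hras1. Slc18a3 was not matched. Sequences and coordinates are RefSeq's for GRCm38.p6.

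Some results that the rule for named genes would give are not reported here.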

Additional observations from a re-analysis of the deposited data

Results flagged for a closer look

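The D1 minus D2 difference of Gpr6 differed between dorsal and ventral striatum. The difference was -5.03 in dorsal and -2.73 in ventral striatum, and the interaction over the 4 striatal groups was -2.30 (SE 0.20, limma adjusted p = 9.15e-13). Its D1 medians were 0.979 CPM in dorsal and 3.40 CPM in ventral striatum, and its D2 medians 41.7 and 25.5 CPM. Under the alternatives the interaction ran from -2.82 to -1.97. The groups held more than 10 libraries each, so no outlier test of single libraries was run, but the alternatives include fits with single libraries left out.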

How the results depend on the processing

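Replicate numbers follow accession order, and the labels state no pairing. The JAG libraries of D1 dorsal and D1 ventral striatum share a title number, but they were treated as separate pools. Because EM titles number the regions in turn, a replicate block was fitted that took each ventral library and the dorsal library of the next number as a pair. Deviations from the group means correlated by 0.0426 to 0.446 in D1 (9 of 11 pairs above 0.1) and by -0.523 to 0.522 in D2 (5 of 8), and 5 of 11 and 1 of 8 dorsal libraries correlated best with their own pair. With this block limma called 3930 genes and 6 of the 9 in D1, and 2212 genes and 7 of the 9 in D2, against 3565 and 6, and 2238 and 6, in EM libraries without it. In D1, Ppp1r1b (0.30, adjusted p = 0.0890) and Ptpn5 (0.15, adjusted p = 0.184) were not called with the block and Ppp1r1a was (0.32, adjusted p = 0.0165), as in EM libraries without it. In D2, Ppp1r1b was called with the block (0.69, adjusted p = 0.0466). The block and the 5 left-out libraries were chosen after seeing the data. For all 8 comparisons across genes and the counts of the 9 genes called, 170 of the alternative values were within 1.5 times of the value reported and 21 were not. Between D1 and D2 in dorsal striatum the count of genes called was 2871, against 1389 in EM libraries and 1658 with the name code, and the count among the 9 genes was 4, against 2 in EM libraries. In ventral striatum the count was 5443, against 1218 with a covariate for the share of reads in genes, which called 1 of the 9. Between dorsal and ventral striatum in D2 neurons the count was 3189, against 2074 in OdP libraries. For the interaction the name code gave 480 genes against 313, and 2 of the 9 genes were called with edgeR, a mean of at least 5 CPM, the name code, scaling to reads in genes and without D2 dorsal striatum replicate 6, so that leaving out libraries gave 1 to 2. For the number of males the count was 11, against 251 in EM libraries, 25 with edgeR, 27 with median-ratio scaling, 278 with the name code, 0 without a filter and 25 with the share as a covariate, and 0 to 16 when libraries were left out (0 without D1 dorsal striatum replicate 13, prefrontal cortex replicate 6 or D2 dorsal striatum replicate 6). The differences below changed sign, and none passed the test under those alternatives. Between D1 and D2 in dorsal striatum Ppp1r1b was -0.0484 with the share as a covariate. In ventral striatum Arpp21 was 0.0736 in EM libraries, 0.0152 with the name code, 0.0572 scaled to reads in genes and 0.244 with the share, Sh3rf2 was 0.117, 0.0544, 0.108 and 0.223 in the same order and -0.0226 to 0.00304 without single libraries, and Rasgrp2 was -0.0872 with the share. Between regions in D2 neurons Arpp21 was -0.0134 in OdP libraries. In the interaction Rasd2 was 0.0759 in EM libraries, 0.00170 with the share and -0.114 to 0.0272 without single libraries. Rasgrp2 was 0.0275 in EM libraries, 0.000834 with a pseudocount of 1, 0.183 with the share and -0.0525 to 0.0749 without single libraries, and Sh3rf2 was -0.0813 in EM libraries. For males Gpr6 was 0.0248 in EM libraries, 0.0361 with the name code and 0.0446 with a pseudocount of 0.1, and Rasgrp2 was -0.0108 with the share and -0.0115 to 0.0246 without single libraries. The cause was not tested. The share of calls that were higher moved by over 10 percentage points: between regions from 29.2% to 50.3% (median-ratio scaling) and 53.8% (edgeR) in D1 and from 27.8% to 51.1% and 50.6% in D2, between D1 and D2 from 49.6% to 59.7% in dorsal and 50.5% to 66.1% in ventral striatum (reads in genes), in the interaction from 73.2% to 61.6% (reads in genes), for males from 54.5% to 70.4% and 44%, and for cortex against dorsal striatum from 59% to 47.3% (edgeR). Depth limited Gpr6 in D1 dorsal striatum and cortex, where medians were 36 and 5 reads.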

Other observations

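Within groups, the level of some of the 9 genes moved with the share of reads that fell in genes, as did that of many other genes. Over 9 genes and 5 groups, 45 relations were computed between log2(CPM + 0.5) and that share, each with a two-sided permutation test of 100000 resamples for Pearson's r and for Spearman's rho and with Benjamini-Hochberg adjustment over the 45. By both coefficients 10 of the 45 passed, 6 with a lower and 4 with a higher level at a higher share. Beside each r stands the share of all genes averaging 1 CPM or more there whose r was as far or farther from 0, as a description. In D2 dorsal striatum (16 libraries) Ppp1r1b fell with the share (r = -0.915, rho = -0.929, adjusted permutation p = 0.000225 for both, from the smallest p these resamples can give, 1e-05). Without the 2 libraries farthest from the median share r was -0.931, and among the 8 EM libraries it was -0.947. Of 11042 genes 1.75% had an r as far from 0. Rasgrp2 fell with it there (r = -0.864, rho = -0.909, adjusted permutation p = 0.000225 for both), with r = -0.856 without those 2 libraries and 5.39% of genes as far from 0. Lrrc10b did too (r = -0.852, adjusted permutation p = 0.000675; rho = -0.90, adjusted permutation p = 0.00045), with r = -0.829 without them and 6.53% of genes as far from 0. Ptpn5 fell with it there as well (r = -0.643, adjusted permutation p = 0.0292; rho = -0.656, adjusted permutation p = 0.0348; r = -0.586 without them), where 29.5% of genes were as far from 0. In D1 dorsal striatum (15 libraries) Gpr6 fell with the share (r = -0.794, adjusted permutation p = 0.00186; rho = -0.768, adjusted permutation p = 0.0081), with r = -0.831 without the 2 farthest and 4.11% of 11271 genes as far from 0. Arpp21 rose with it there (r = 0.623, adjusted permutation p = 0.0477; rho = 0.714, adjusted permutation p = 0.0215; r = 0.443 without the 2 farthest), where 18.4% of genes were as far from 0.

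The direction was not the same for all genes. In D1 ventral striatum (15 libraries) Rasd2 rose with the share (r = 0.887, adjusted permutation p = 0.0003; rho = 0.839, adjusted permutation p = 0.00144; r = 0.856 without the 2 farthest), where 2.23% of 11445 genes were as far from 0. In D2 dorsal striatum Rasd2 fell with it (r = -0.661, adjusted permutation p = 0.0260; rho = -0.641, adjusted permutation p = 0.0401; r = -0.637 without the 2 farthest), where 27.4% of genes were as far from 0. Sh3rf2 rose with it in D1 ventral striatum (r = 0.798, adjusted permutation p = 0.00186; rho = 0.871, adjusted permutation p = 0.00101; r = 0.736 without the 2 farthest), and so did Arpp21 (r = 0.830, adjusted permutation p = 0.00186; rho = 0.793, adjusted permutation p = 0.0054; r = 0.745 without the 2 farthest), with 9.76% of genes as far from 0 as Sh3rf2 and 6.83% as far as Arpp21. The relation of Ppp1r1a passed in 0 of 5 groups. All values of a library share its depth and the total it was scaled to, and the part of these in the relations was not tested.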
